A study of Homo sapiens with 17 samples.

Results

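The DNA replication machinery was followed as 47 genes in NKYS cells, a human natural killer cell lymphoma line kept in IL-2. The members were named from a list of replication genes: the MCM2 to MCM7 helicase, origin recognition (ORC), GINS, polymerase and clamp loader (RFC) subunits, and the factors that license, fire, protect and finish replication. Each member was read from probe sets annotated to its symbol alone, and all 47 were found among 18377 such genes, each with 1 probe set. RNA was measured on 17 microarrays after electroporation of siRNAs or plasmids.

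The siRNA arrays were 2 with JAK3 siRNA, 2 with control siRNA for that knockdown, 2 with EZH2 siRNA and 2 with control siRNA whose titles tie each to 1 EZH2 siRNA array. The plasmid arrays were 2 titled EZH2 Y244D, 2 titled EZH2 Y244A, 2 titled EZH2 WT, 1 titled EZH2 SET∆, and 2 titled Vector Control. All groups share the 1 cell line, its IL-2 medium and electroporation. The sources used here do not name the promoter on the plasmids. JAK3 is the tyrosine kinase that signals from cytokine receptors such as that of IL-2. EZH2 is the histone methyltransferase of Polycomb repressive complex 2, SET is its catalytic domain, and Y244D and Y244A are substitutions of 1 of its tyrosines. The second plasmid set carries labels that disagree: by the transfection field, its arrays titled Y244D, Y244A and WT hold EZH2 WT and the codes MtCA and Mt2. The arrays are named here by title, and the comparison of all full-length EZH2 with vector does not depend on that choice. Nothing in the labels tells whether arrays of 1 group came from separate cultures. The p-values therefore reflect array-to-array spread that may be technical, and their precision is limited by how few arrays there are.

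Replication starts where the origin recognition complex marks DNA and where CDC6 and CDT1 load the MCM helicase on it, a step that geminin (GMNN) holds back. The kinase CDC7 with DBF4, together with CDC45, GINS and MCM10, then turns the loaded helicase into a moving fork, at which primase and the polymerases copy DNA, RFC loads the sliding clamp PCNA, and FEN1 and LIG1 finish the lagging strand. Transcription of many of these genes is tied to the cell cycle through E2F factors, so that their RNA is high in dividing cells such as a lymphoma line.

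The promoters of 4 members are shown because TIPIN and CDC6 were the members that passed the test after EZH2 siRNA, and MCM10 and ORC1 had the lowest fitted values in their own groups without passing it. Each is the stretch from 250 bases before to 50 bases after the start site in RefSeq GRCh38.p14, written 5′ to 3′ on the strand of the gene. Capitals mark a CCAAT box (CCAAT, or ATTGG on the other strand) or an E2F octamer. The TIPIN promoter lies at chr15:66386668-66386967, minus strand, the CDC6 promoter at chr17:40287629-40287928, plus strand, the MCM10 promoter at chr10:13161308-13161607, plus strand, and the ORC1 promoter at chr1:52404374-52404673, minus strand.
TIPIN: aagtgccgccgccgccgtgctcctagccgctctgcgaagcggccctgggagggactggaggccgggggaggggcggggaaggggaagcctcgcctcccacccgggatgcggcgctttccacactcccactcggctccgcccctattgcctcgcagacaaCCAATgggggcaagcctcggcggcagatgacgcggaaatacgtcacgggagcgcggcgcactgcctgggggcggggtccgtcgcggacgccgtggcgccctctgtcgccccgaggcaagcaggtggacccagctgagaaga
CDC6: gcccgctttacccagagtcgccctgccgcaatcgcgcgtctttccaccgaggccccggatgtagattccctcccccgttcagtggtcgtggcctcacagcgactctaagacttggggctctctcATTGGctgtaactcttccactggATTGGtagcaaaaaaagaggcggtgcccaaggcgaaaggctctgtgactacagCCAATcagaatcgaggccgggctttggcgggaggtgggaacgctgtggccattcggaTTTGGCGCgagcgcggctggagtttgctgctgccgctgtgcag
MCM10: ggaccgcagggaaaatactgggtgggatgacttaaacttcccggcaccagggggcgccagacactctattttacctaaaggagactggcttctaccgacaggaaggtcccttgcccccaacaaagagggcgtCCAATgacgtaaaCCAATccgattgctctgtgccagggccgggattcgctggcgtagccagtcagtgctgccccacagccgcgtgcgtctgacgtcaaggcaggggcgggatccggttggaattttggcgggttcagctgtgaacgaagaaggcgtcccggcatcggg
ORC1: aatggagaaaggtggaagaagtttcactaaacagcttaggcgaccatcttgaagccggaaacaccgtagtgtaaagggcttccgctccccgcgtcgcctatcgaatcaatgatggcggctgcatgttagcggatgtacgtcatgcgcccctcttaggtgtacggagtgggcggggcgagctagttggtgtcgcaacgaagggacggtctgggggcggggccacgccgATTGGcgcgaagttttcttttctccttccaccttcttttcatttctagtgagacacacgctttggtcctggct

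The E2F octamers searched were TTTCCCGC, TTTGGCGC, TTTCGCGC and TTTGCCGC, on both strands. Of the 4 printed promoters, the CDC6 promoter held 1, TTTGGCGC at 7 to 14 bases after the start, and it also held 3 CCAAT boxes. A promoter was found for 41 of the 47 members, and 18 of the 41 (43.9%) held at least 1 of these octamers, against 581 of 11294 promoters of the genes tested (5.14%) and 908 of all 27305 promoters (3.33%). A CCAAT box stood in 23 of 41 (56.1%), against 36.0% of the promoters of genes tested and 35.7% of all promoters. The cell cycle homology region, searched as TTTGAA or TTCGAA on both strands, stood in 2 of 41 (4.88%), against 11.7% and 16.6%. None of the motifs contains another, and a match describes the letters alone.

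The targeted genes followed the siRNA labels. JAK3 gave signals (linear intensity as deposited) of 138.1 and 136.7 on the JAK3 siRNA arrays, against 322.5 and 326.3 on their controls, a log2 change of -1.24 (SE 0.069). EZH2 gave 500.9 and 488.7 on EZH2 siRNA arrays 1 and 2, against 926.3 and 690.8 on their controls, a log2 change of -0.69 (SE 0.088). Its difference was -0.887 within pair 1 and -0.499 within pair 2. On JAK3 siRNA arrays EZH2 gave 776.4 and 763.4, against 890.8 and 871.1 on their controls, without overlap. Its log2 change there was -0.194 (SE 0.088, limma adjusted p = 0.4), and that of JAK3 after EZH2 siRNA was 0.149 (SE 0.069, limma adjusted p = 0.328). On the plasmid arrays EZH2 gave 802.5 to 2220.8 with the 6 full-length plasmids and 1471.1 with the SET deletion, against 258.8 and 349.5 with vector. Of 10 natural killer lineage markers, 8 lay above the array median on all 4 control siRNA arrays, while GNLY (47.07 to 48.55) and CD2 (35.45 to 39.55) did not. Of the other cell types' markers, CD4 (1 of 5 T cell markers measured), CD79B and PAX5 (2 of 4 B cell), CSF1R (1 of 3 monocyte) and KRT18, COL1A1 and COL1A2 (3 of 5 epithelial and fibroblast) also lay above the array median there. CD3E gave 30.94 to 32.11, and CD4, which is not confined to T cells, gave 310.6 to 413.1. Of the 47 members, 46 lay above the array median on all 4 control siRNA arrays, the exception being DBF4, and 40 did on both vector arrays.

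TIPIN and CDC6 fell after EZH2 siRNA, and most other members had fitted changes below 0 that did not pass the test. Of 47 members, 2 fell and 0 rose in limma's test at an adjusted p under 0.05, where 0.567% of the 14466 genes tested fell, 0.373% rose and 0.94% passed either way. The fitted change was below 0 in 44 of 47 members, against 51.8% of all genes tested, and its median was -0.22 over the members and -0.004 over all genes. An unadjusted p under 0.05 was found for 28 members, all with lower fitted values, and for 2253 of the 14466 genes. In RNA of whole cultures, fewer cells of 1 type and less RNA per cell cannot be told apart.

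TIPIN, which with TIMELESS protects paused forks, gave 443.5 and 527.6 on EZH2 siRNA arrays 1 and 2, against 658.9 and 676.6 on their controls. The EZH2 siRNA arrays both lay below both controls. TIPIN fell by 0.465 on the log2 scale (SE 0.075, 1.38-fold lower, limma adjusted p = 0.0275). CDC6, the loader of the MCM helicase, gave 213.8 and 271.5 on EZH2 siRNA arrays, against 311.7 and 337.4 on their controls, again without overlap. CDC6 fell by 0.429 (SE 0.077, 1.35-fold lower, limma adjusted p = 0.0341). Without the pair as a block the limma adjusted p was 0.0544 for TIPIN and 0.088 for CDC6, and over all alternatives run it ranged from 0.00381 to 0.273 for TIPIN and from 0.00541 to 0.309 for CDC6. Without either array of pair 2, 19 members and 1511 of 14466 genes passed. Without either array of pair 1, 0 of 47 did in limma, with 9 members and 1639 genes at an unadjusted p under 0.05. In both cases the lone pair is assumed to vary like the JAK3 arm.

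**Figure D1:**
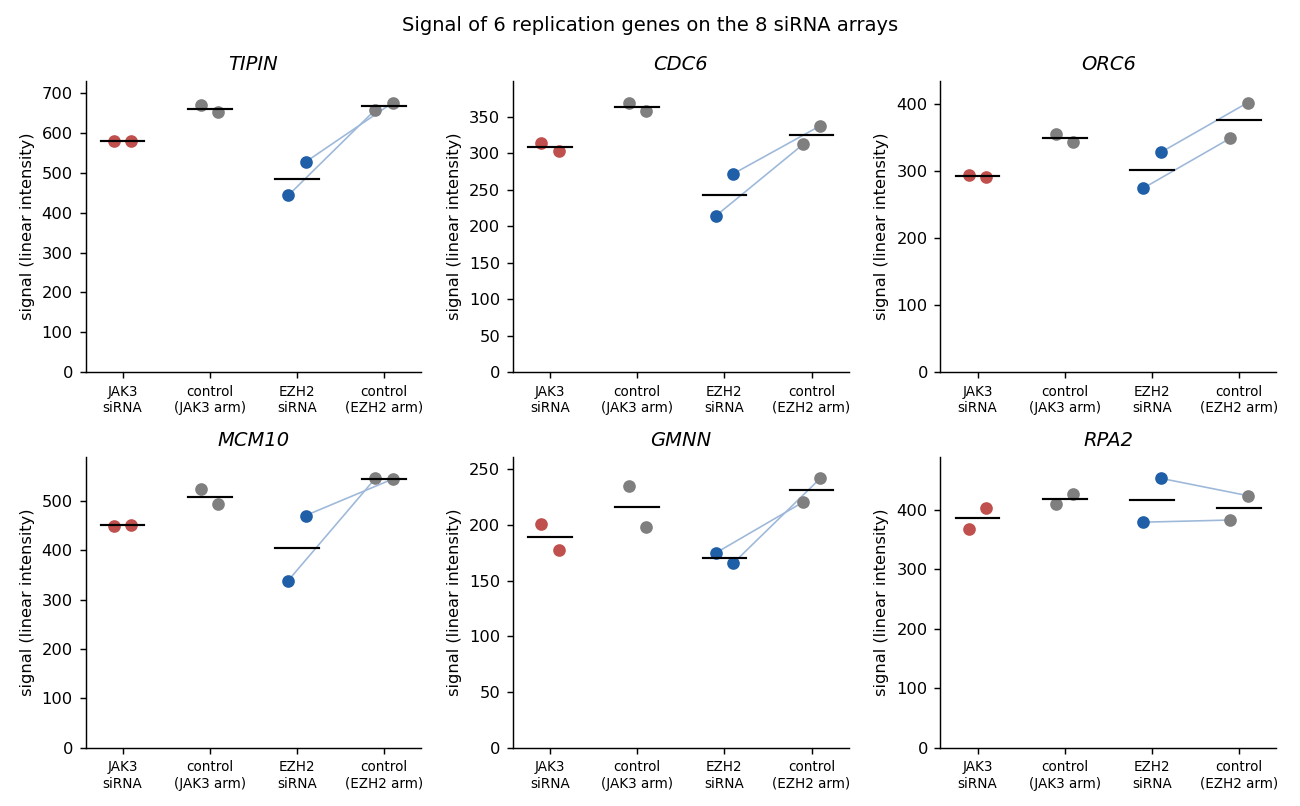
Signal (linear intensity, y axis from 0) of 6 members on each siRNA array, with the group mean as a black bar and a line joining each EZH2 siRNA array to its own control. TIPIN, CDC6, ORC6, MCM10 and GMNN lie lower on both EZH2 siRNA arrays than on both controls, while RPA2 overlaps.

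In the origin recognition complex, ORC6 had the smallest p. ORC6 gave 274.4 and 327.8 on EZH2 siRNA arrays, against 349.1 and 402.2 on controls, with no overlap and a log2 change of -0.32 (SE 0.070, adjusted p in limma = 0.0512). ORC1, an ATPase subunit, gave 172.8 and 231.7 on EZH2 siRNA arrays, against 277.3 and 251.3 on controls, with -0.40 on the log2 scale (SE 0.107, adjusted p = 0.094 in limma). ORC1 differed by -0.68 in pair 1 and by -0.12 in pair 2. The fitted changes of ORC2, ORC3 and ORC5 lay between -0.247 and -0.026, and the median of the 5 subunits was -0.25.

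Among the licensing factors beside CDC6, geminin (GMNN) gave 174.9 and 165.6 on EZH2 siRNA arrays, against 220.5 and 242.0 on controls. Its change was -0.44 (SE 0.097, limma adjusted p = 0.0537), and both arrays lay below both controls. CDT1, the partner of CDC6 in loading the helicase, had a change of -0.22 (SE 0.078). DTL, which directs CDT1 to degradation, gave 878.8 and 1122.0 on EZH2 siRNA arrays, against 972.9 and 1041.0 on controls, so that its values overlapped and its change was -0.019 (SE 0.078).

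The MCM2 to MCM7 helicase subunits had fitted changes from -0.34 to -0.12, and 0 of 6 passed the test. MCM2 had the lowest value: it gave 373.9 and 402.7 on EZH2 siRNA arrays, against 552.5 and 436.9 on controls, with a change of -0.34 (SE 0.097, limma adjusted p = 0.114). MCM2 differed by -0.56 in pair 1 and by -0.12 in pair 2, and MCM5 by -0.52 in pair 1 and by -0.008 in pair 2. Among the factors that activate the helicase, MCM10 gave 338.8 and 470.5 on EZH2 siRNA arrays, against 545.9 and 544.5 on controls, without overlap and with a change of -0.45 (SE 0.098, limma adjusted p = 0.0528). CDC45, a part of the moving helicase, had a change of -0.25 (SE 0.076), and CDC7 and DBF4 had -0.12 and -0.062. The 4 GINS subunits lay between -0.342 and -0.158, and GINS2 differed by -0.69 in pair 1 and by 0.004 in pair 2.

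Of 9 polymerase and primase subunits all had changes below 0 and none passed the test, with 4 at an unadjusted p under 0.05. POLE2, a subunit of the leading strand polymerase, gave 227.0 and 265.5 on EZH2 siRNA arrays, against 294.3 and 322.9 on controls, without overlap and with a change of -0.33 (SE 0.087, limma adjusted p = 0.0912). POLD3, an accessory subunit of polymerase delta, had a change of -0.013 (SE 0.071). RFC3, a small subunit of the clamp loader, gave 468.7 and 597.4 on EZH2 siRNA arrays, against 653.1 and 677.0 on controls, with a change of -0.33 (SE 0.091, limma adjusted p = 0.105). RFC1, the large subunit of the loader, had 0.013 (SE 0.081) and PCNA had -0.15.

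FEN1, which trims flaps between Okazaki fragments, gave 406.0 and 452.2 on EZH2 siRNA arrays, against 543.5 and 513.3 on controls, without overlap and with a change of -0.30 (SE 0.077, limma adjusted p = 0.0854). LIG1, the ligase that seals them, had -0.10. In the single-strand binding complex, RPA1 gave 204.2 and 213.2 on EZH2 siRNA arrays, against 243.1 and 227.0 on controls, with a change of -0.17 (SE 0.072, limma adjusted p = 0.27), while RPA2 and RPA3 had 0.041 and 0.030. RPA2, RPA3 and RFC1 were the 3 members with fitted changes above 0. Of the chromatin factors, WDHD1, which ties the helicase to polymerase alpha, had -0.29 (SE 0.072), and the CHAF1A and CHAF1B subunits of the histone chaperone CAF1 had -0.18 each.

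**Figure D2:**
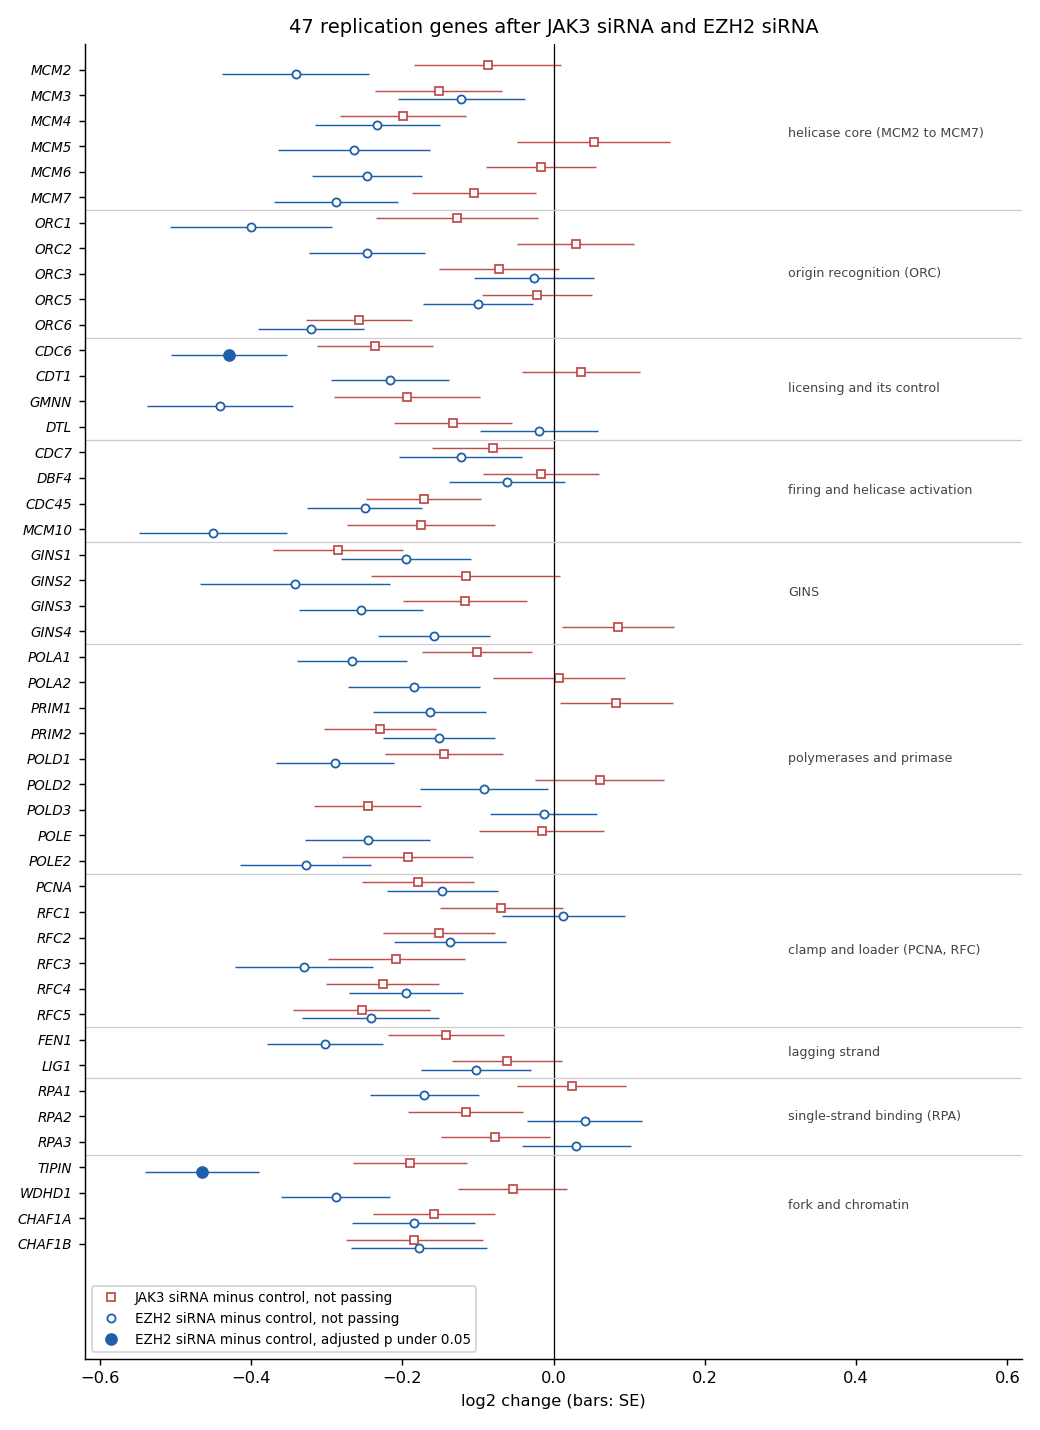
Fitted log2 change with its SE (x axis) for each of the 47 members, in their subcomplexes, after JAK3 siRNA (squares) and after EZH2 siRNA (circles), each against its own control. Filled circles mark TIPIN and CDC6, and 44 EZH2 siRNA values and 39 JAK3 siRNA values lie below 0.

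The pairs differed in size. The median difference over the 47 members was -0.31 in pair 1, against -0.095 in pair 2, while over all genes it was -0.030 and 0.011. In pair 1 the medians ran from -0.41 for MCM2 to MCM7 to -0.014 for RPA, and in pair 2 from -0.21 for the licensing factors to 0.033 for RPA. Both pairs had a difference below 0 in 38 of 47 members, and the same held for 28.3% of all genes. Both EZH2 siRNA arrays lay below both controls in 33 of 47 members, against 20.8% of all genes.

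Other measures moved with these groups. The summed signal of the 10 natural killer markers was 10919 to 11229 on EZH2 siRNA arrays, against 7120 to 10349 on controls. On the control siRNA arrays of both arms GZMB gave 2835 to 5473, PRF1 2210 to 3051 and NKG7 1262 to 1468. No other marker of that list gave more than 230.2, so the sum mostly reflects these genes. The summed signal of the 5 measured T cell markers, of which CD4 alone lay above the array median, was 525 to 562, against 457 to 489. That of the 3 measured monocyte markers, of which CSF1R alone did, was 290 to 313, against 236 to 276. The epithelial and fibroblast sum was 420 to 435, against 400 to 405, and the B cell sum was 226 to 228, against 218 to 222. The interquartile range of log2 signal over all probe sets was 2.265 and 2.267 on EZH2 siRNA arrays, against 2.281 and 2.298 on controls. The part of these in the result was not tested.

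**Figure D3:**
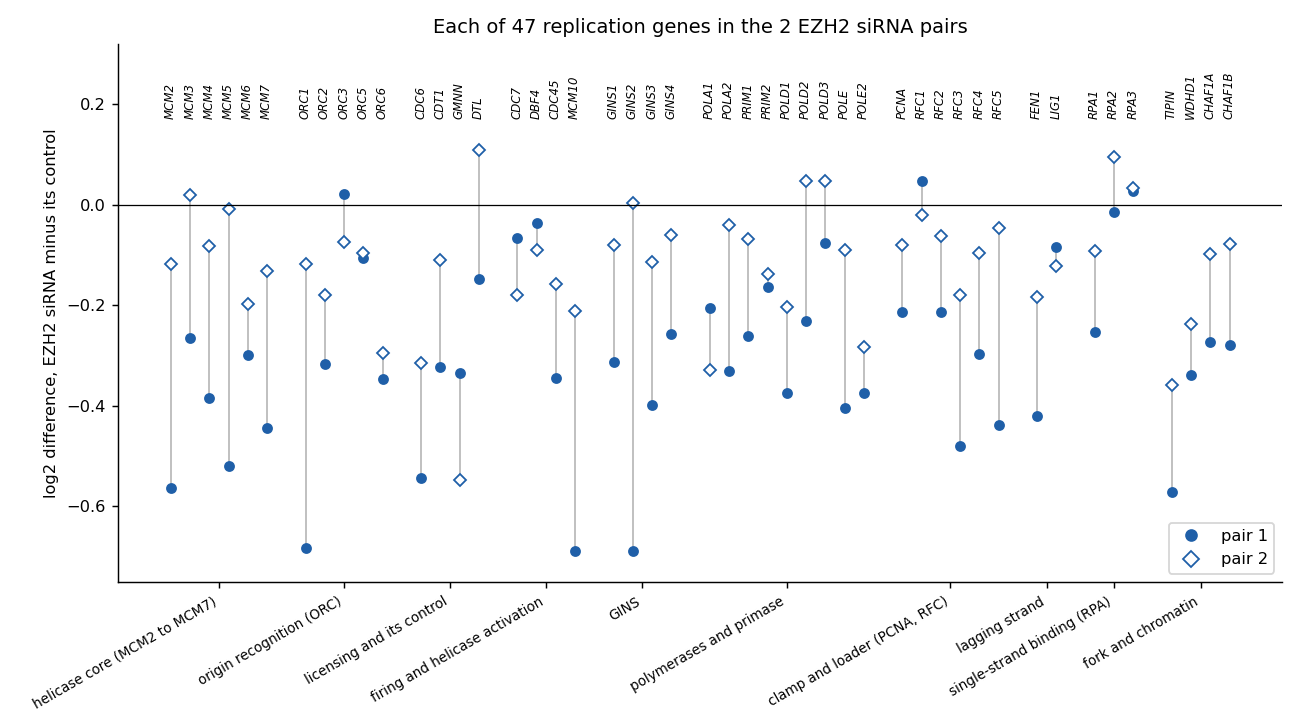
Log2 difference of EZH2 siRNA from its own control (y axis) for each member in pair 1 (filled circles) and pair 2 (open diamonds), by subcomplex. For most members the pair 1 value is the lower one, and GMNN, POLA1, CDC7, DBF4, ORC3, RFC1 and LIG1 are among those where pair 2 is lower.

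Of 36 other replication genes that are not members, 4 fell and 0 rose after EZH2 siRNA, and 33 had changes below 0, with a median of -0.20. Over all genes tested, 0.567% fell, 0.373% rose and 51.8% had changes below 0, with a median of -0.004. An unadjusted p under 0.05 was found for 23 of the 36, against 2253 of 14466 genes. Of these 23, 22 had lower fitted values, and CHTF8 had 0.166 (SE 0.071). DNA2, a nuclease of long flaps, gave 253.1 and 282.4 on EZH2 siRNA arrays, against 332.9 and 357.4 on controls, a log2 change of -0.37 (SE 0.072, adjusted p in limma = 0.0444). PCLAF, which binds PCNA, gave 574.3 and 608.4 on EZH2 siRNA arrays, against 816.6 and 740.3 on controls, with -0.40 (SE 0.076, limma adjusted p = 0.0444). CCNA2, the cyclin of S phase, gave 456.2 and 471.5 on EZH2 siRNA arrays, against 604.4 and 613.2 on controls, with -0.39 (SE 0.081, limma adjusted p = 0.0473). None of these overlapped. MCM9, an MCM relative with a part in repair, gave 86.49 and 94.26 on EZH2 siRNA arrays, against 112.7 and 115.5 on controls, with -0.34 (SE 0.071, limma adjusted p = 0.0486). With the mean of its probe sets, MCM9 had -0.19 and a limma adjusted p of 0.263. Without the pair as a block these 4 had limma adjusted p from 0.0626 to 0.0715, and without either array of pair 1 from 0.304 to 0.316, the range over all alternatives being 0.00662 to 0.316.

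After JAK3 siRNA 0 of 47 members passed limma's test, where 1.38% of all genes tested did (0.76% lower and 0.622% higher). An unadjusted p under 0.05 was found for 13 members, all with lower fitted values, and for 1794 of 14466 genes. The fitted change was below 0 in 39 of 47 members, against 54.2% of all genes, and its median was -0.12, against -0.010 over all genes. Both JAK3 siRNA arrays lay below both controls in 29 of 47 members and in 27.1% of all genes. The summed signal was 9373 to 9480 on JAK3 siRNA arrays, against 9179 to 9276 on controls, for natural killer markers, 231 to 236, against 218 to 219, for monocyte markers and 232 to 239, against 224 to 231, for B cell markers. It overlapped between the groups for T cell markers (547 to 560, against 556 to 563) and for epithelial and fibroblast markers (395 to 401, against 381 to 396). The part of these in the result was not tested.

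ORC6 had the smallest p: it gave 293.9 and 291.4 on JAK3 siRNA arrays, against 355.9 and 343.7 on controls, with a log2 change of -0.26 (SE 0.070, adjusted p in limma = 0.119). POLD3 gave 270.2 and 273.0 on JAK3 siRNA arrays, against 324.6 and 319.8 on controls, with -0.25 (SE 0.071, limma adjusted p = 0.141). GINS1, a GINS subunit, gave 450.2 and 453.1 on JAK3 siRNA arrays, against 588.6 and 514.7 on controls, with -0.29 (SE 0.086, limma adjusted p = 0.157). In each of these 3 the groups did not overlap and the JAK3 siRNA arrays lay close together. CDC6 gave 313.9 and 303.1 on JAK3 siRNA arrays, against 369.1 and 357.3 on controls, with -0.24 (SE 0.077, limma adjusted p = 0.203). RFC4, a small subunit of the clamp loader, gave 629.1 and 658.3 on JAK3 siRNA arrays, against 754.9 and 750.6 on controls, with -0.23 (SE 0.075, limma adjusted p = 0.212). TIPIN gave 579.6 and 579.9 on JAK3 siRNA arrays, against 670.8 and 652.1 on controls, with -0.19 (SE 0.075). These 3 also had no overlap between the groups.

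In the remaining groups, MCM4, a helicase subunit, gave 1037.0 and 1042.0 on JAK3 siRNA arrays, against 1235.0 and 1154.0 on controls, with -0.20 (SE 0.083). FEN1 gave 447.5 and 467.8 on JAK3 siRNA arrays, against 506.3 and 503.3 on controls, with -0.14 (SE 0.077). RPA2, the middle subunit of RPA, gave 368.4 and 403.1 on JAK3 siRNA arrays, against 409.1 and 426.2 on controls, with -0.12 (SE 0.076). None of these passed. In each, both JAK3 siRNA arrays lay below both controls, as they did in 27.1% of all genes. The members whose signals after JAK3 siRNA are given had the smallest p of their group. The lack of overlap is therefore not independent of that choice. By group the median change was lowest in the clamp and its loader (-0.19, with 4 of 6 members at an unadjusted p under 0.05) and was -0.096 for MCM2 to MCM7. Members with fitted changes above 0 were GINS4 (0.085), PRIM1 (0.083), POLD2, MCM5, CDT1, ORC2, RPA1 and POLA2. Of the 36 other replication genes 0 passed, with a median of -0.092. An unadjusted p under 0.05 was found for 10 of them, 9 with lower fitted values, against 1794 of 14466 genes. The exception was CHTF8, with 0.243 (SE 0.071, limma adjusted p = 0.144), which had the smallest p of the 36.

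The JAK3 and EZH2 siRNA effects have separate controls, and their difference was tested in the same model. The JAK3 siRNA effect minus the EZH2 siRNA effect passed limma's test for 0 of 47 members, where 0.366% of all genes did (0.228% lower and 0.138% higher), with 9 members and 1177 genes at an unadjusted p under 0.05. Its median was 0.14 over the members and 0 over all genes, and it was above 0 in 33 of 47. MCM2 to MCM7 had the median 0.21, while the clamp and its loader had -0.023. TIPIN had 0.275 (SE 0.106, limma adjusted p = 0.485), and ORC2, an origin recognition subunit, had 0.277 (SE 0.109, limma adjusted p = 0.496). POLD3 had the lowest value, -0.233 (SE 0.10, limma adjusted p = 0.571). Without either array of EZH2 pair 2, 4 members (GINS2, MCM10, MCM5 and ORC1) and 323 of 14466 genes passed.

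Full-length EZH2 plasmids were compared with vector for 46 members, since DBF4 did not pass the filter on low signal. In limma 0 of 46 members and 0% of 14410 genes passed, and an unadjusted p under 0.05 was found for 0 members and 10 genes. EZH2 itself, at 1.85 (SE 0.347), had an adjusted p of 1 in limma. This fit had no term for the plasmid set, so that differences between the sets counted as array-to-array spread. With the set as a block, 0 members and 0 genes passed too. The median change of the members was 0.010, as it was over all genes.

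GINS2, a GINS subunit, had the smallest p: with full-length EZH2 it ranged from 60.24 to 91.06 with a median of 71.93, against 50.45 and 70.22 with vector, and its log2 change was 0.29 (SE 0.193). MCM4 ranged from 220.4 to 323.3 (median 232.5) with full-length EZH2, against 353.6 and 240.1 with vector, with -0.26 (SE 0.196). PCNA ranged from 334.5 to 660.3 (median 432.0) with full-length EZH2, against 337.3 and 406.0 with vector, with 0.28 (SE 0.233). The groups overlapped in all 3. GMNN ranged from 52.11 to 91.38 (median 75.31) with full-length EZH2, against 49.70 and 72.67 with vector, with 0.21 (SE 0.246). ORC5, an origin recognition subunit, ranged from 127.3 to 235.3 (median 195.3) with full-length EZH2, against 116.1 and 237.5 with vector, with 0.15 (SE 0.297). POLD2, a small subunit of polymerase delta, ranged from 130.3 to 230.8 (median 176.7) with full-length EZH2, against 212.1 and 183.7 with vector, with -0.16 (SE 0.202). RPA3, LIG1 and CHAF1B had -0.11, -0.095 and -0.066. RPA3 ranged from 61.18 to 67.92 (median 63.97) with full-length EZH2, against 72.14 and 65.44 with vector. LIG1 ranged from 133.1 to 183.8 (median 162.9) with full-length EZH2, against 186.0 and 156.5 with vector. These overlap, as does CHAF1B, at 96.99 to 156.4 (median 119.4) with full-length EZH2, against 117.4 and 138.2 with vector. The vector arrays differed from each other by more than the fitted change in 8 of these 9 members, the exception being PCNA. Without vector array 1 or 2, the change was 0.049 or 0.526 for GINS2, 0.141 or 0.409 for PCNA and -0.059 or -0.266 for POLD2. That of MCM4, GMNN, LIG1 and ORC5 had the opposite sign without vector array 1 and that of CHAF1B without vector array 2.

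The plasmid arrays differed from each other across all genes. Within set 1 the median difference of the full-length arrays from their vector was 0.14 over the members (0.043 over all genes), 18 of 46 members lay above the vector on all 3 arrays and 3 below it, and the shares of all genes were 37% and 28%. Within set 2 the median was -0.13 (-0.043 over all genes), 1 of 46 lay above its vector on all 3 arrays and 24 below it, and the shares of all genes were 17.9% and 31.9%. The difference between the sets passed limma's test for 0 of 46 members and 0 of 14410 genes, with 3 members and 1762 genes at an unadjusted p under 0.05. Arrays with a wider spread of signal mostly had higher member signal: vector array 1 had a median log2 signal of 6.957 over the members and an interquartile range of 1.79 over all probe sets, while vector array 2 had 7.409 and 2.183. This spread was also added to the model as a covariate, chosen after seeing the data, and 0 members passed, with a median of -0.015. As 0 members passed without it too, this count cannot show the part of the spread in the results, which was not tested.

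**Figure D4:**
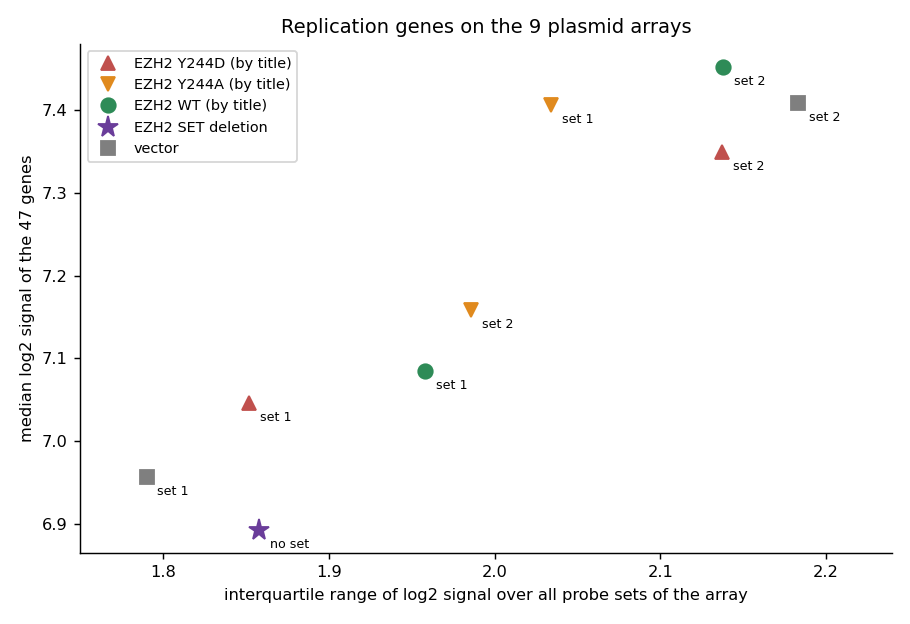
Median log2 signal of the 47 members (y axis) against the interquartile range of log2 signal over all probe sets (x axis) for each of the 9 plasmid arrays, by title and set number. The vector arrays stand near both ends, at 6.957 and 7.409, and the SET deletion array is lowest at 6.893.

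Between the full-length alleles, 0 of 46 members and 0% of all genes passed limma's test in each of the 3 comparisons. By title the median was -0.054 for Y244D minus WT, 0 for Y244A minus WT and -0.097 for Y244D minus Y244A, and 0 members had an unadjusted p under 0.05 in any of them. The genes at an unadjusted p under 0.05 numbered 0 for Y244D minus WT, 5 for Y244A minus WT and 0 for Y244D minus Y244A. By the transfection field, with its codes read through set 1, the median was -0.12 for Y244D minus WT, 0.23 for Y244A minus WT and -0.36 for Y244D minus Y244A. In limma 0 members passed in any of these, with 4 members and 183 genes at an unadjusted p under 0.05 in the last, 3 genes in Y244A minus WT and 48 in Y244D minus WT.

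The SET deletion array lay below the other plasmid arrays for many members. It is 1 array, so no test was made, and called means at least 0.5 on the log2 scale from both vectors in the same direction. Of 46 members 3 were called lower and 0 higher, where 0.59% of all genes were called lower and 0.0833% higher. DTL gave 130.1 on the SET deletion array, against 253.4 and 225.4 with vector, a difference of -0.962 and -0.793. RFC3 gave 116.8 with the SET deletion, against 167.1 and 220.1 with vector, a difference of -0.517 and -0.914. POLA2, the regulatory subunit of polymerase alpha, gave 109.2 with the SET deletion, against 156.2 and 160.4 with vector, a difference of -0.516 and -0.555. All 3 also lay below the 6 full-length arrays, whose lowest values were 182.7 for DTL, 169.3 for RFC3 and 123.0 for POLA2.

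Of the 46 members 20 lay below all 8 other plasmid arrays, against 10.9% of all genes, and 0 lay above all 8, against 2.94%. They held all 4 GINS subunits, 3 of the 6 MCM2 to MCM7 subunits, 3 of 4 licensing factors and 0 of 5 origin recognition subunits. The 3 helicase subunits were MCM4, MCM5 and MCM7. GINS2 gave 43.85 with the SET deletion, against 50.45 and 70.22 with vector, and GINS4 gave 53.44, against 67.76 and 86.49. The members' median difference was -0.16 from vector array 1 and -0.56 from vector array 2, while over all genes it was -0.037 and -0.14. Against the mean of the full-length arrays it was -0.38, and -0.064 over all genes. With vector array 1 left out 28 members were called, all lower, and with vector array 2 left out 8 were, 7 lower and 1 higher. Of the 14410 genes, 3723 and 2583 were called either way in the same cases.

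The SET deletion array had an interquartile range of 1.858, near the low end of the other plasmid arrays (1.79 to 2.183), and a member median of 6.893. Vector array 1, at 1.79, had a member median of 6.957, and the first array titled Y244D, at 1.852, had 7.046. Vector array 2, at 2.183, had 7.409. The SET deletion array is unnumbered, so that no vector is tied to it. Its summed natural killer marker signal was 4160, against 4618 to 6790 on full-length arrays and 4952 to 5375 on vector arrays. Its summed signal of 5 epithelial and fibroblast markers was 695, against 454 to 719 and 465 to 875. The part of these in the result was not tested. With 1 array, the construct and the array cannot be told apart.

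**Figure D5:**
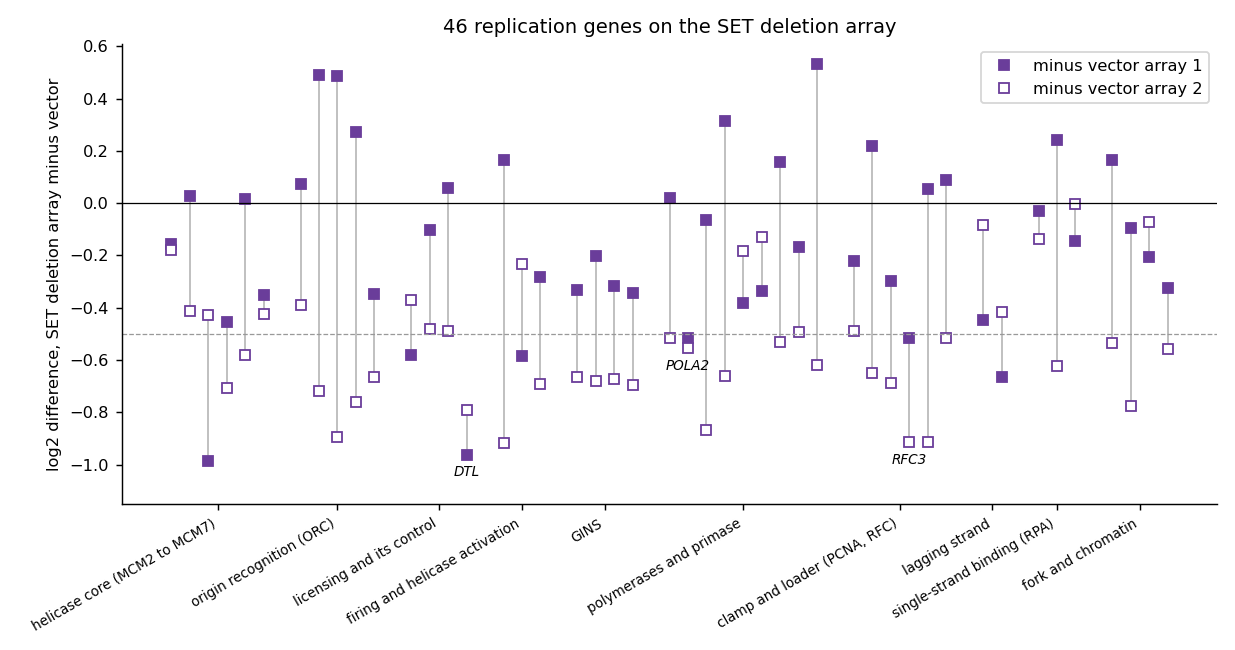
Log2 difference of the SET deletion array from vector array 1 (filled squares) and vector array 2 (open squares) for 46 members by subcomplex (y axis), with the line at -0.5 used for calling. DTL, RFC3 and POLA2 lie below the line against both vectors, and the ORC subunits ORC1, ORC2, ORC3 and ORC5 lie above 0 against vector 1 and below 0 against vector 2.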

How the data were processed

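Expression in NKYS cells was read on 17 arrays. Total RNA, per the labels' protocols, was extracted with TRIzol and a column and labelled with Nugen kits. The authors deposited linear signal intensity for 28869 probe sets, from 19.39 to 15690. The sources used here do not tell how they corrected, normalized and summarised it. Log2 of the deposited intensity was taken here.

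The 19310 probe sets with 1 symbol in the platform annotation gave 18377 genes, each by its probe set of highest mean. Genes with a mean log2 signal below the 30th percentile of all 28869 probe sets, over the arrays of a fit, were left out (JAK3 and EZH2 kept). limma 3.58.1 (R 4.3.3) fitted lmFit and eBayes to all genes passing, two-sided, with Benjamini-Hochberg adjustment over them. The 8 siRNA arrays shared 1 fit with the EZH2 pair as a block, because the titles tie each control to 1 EZH2 siRNA array. The correlation of same-numbered arrays' deviations was -0.086 in that arm. The plasmid fit held 8 arrays, with no term for the set. The fits were tested on simulated data, and no result of that is reported here.

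Members, lists and tests were chosen with earlier results of these data known. Members with values given were, per role, the smallest p in the EZH2, JAK3 and plasmid comparisons and any member called, and for the SET deletion those past 0.5; GMNN, ORC1 and some others were added after their values were seen. Promoters came from RefSeq (GRCh38.p14).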

Additional observations from a re-analysis of the deposited data

Results flagged for a closer look

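Groups of 4 or more arrays exist for full-length EZH2 alone, and Dixon's test at the 95% level was applied to 11 values there, of which chance flags about 1 in 20. MCM4 on the first array titled Y244A stood apart among the 6 full-length arrays. On the log2 scale its gap to the nearest array was 0.806 of the range, above the critical value of 0.625. MCM4 gave 323.3 on that array, where the others gave 220.4 to 237.4, and 353.6 and 240.1 with vector.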

How the results depend on the processing

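The intensities are summaries of unknown normalization, and 2 arrays a group set the precision. After JAK3 siRNA the 0 members called became 4 with array weights (CDC6, GINS1, ORC6 and POLD3) and 1 when the 4 arrays of the arm were fitted alone, with 699 and 517 of all genes called; leaving out arrays gave 0 each time, with medians from -0.143 to -0.095. After EZH2 siRNA the 2 members called became 0 with no filter, with array weights and without the replicate block (pair), 1 after quantile normalization, 4 after centring arrays on their medians, 5 with trend and robust fitting and 5 when the 4 arrays were fitted alone. Leaving out 1 array gave 0 to 19 members and medians from -0.312 to -0.095, and the change of GINS2 ran from -0.688 without pair 2 to 0.004 without pair 1. The number of genes called was 136 in the reported fit, 0 with no filter (2511 at an unadjusted p under 0.05) and with array weights (1255), 20 without the block, 56 after quantile normalization, 192 after centring, 230 with trend and 217 with 4 arrays. For the difference of the siRNA effects, leaving out arrays gave 0 to 4 members and medians from 0.031 to 0.184. The plasmid median ran from -0.198 to 0.208 when arrays were left out; without vector array 1 MCM4 was at 0.02, GMNN at -0.062, LIG1 at 0.03, ORC5 at -0.365 and CHAF1B at -0.184, and without vector array 2 they were at -0.539, 0.486, -0.219, 0.668 and 0.052 in that order. Without vector array 1 or 2, GINS2 was at 0.049 or 0.526, PCNA at 0.141 or 0.409, RPA3 at -0.036 or -0.177 and POLD2 at -0.059 or -0.266. Y244D minus Y244A had a median of -0.363 by the transfection field. For the SET deletion, leaving out vector array 1 or 2 gave 28 or 8 members, with 3723 or 2583 of 14410 genes called either way, with medians from -0.557 to -0.163. The cause of these moves was not tested. Same-numbered arrays' deviations correlated at 0.151 in the JAK3 arm. Within plasmid sets the correlation was 0.919 for vector and Y244D, 0.85 for vector and WT and 0.866 for Y244D and WT, but 0.008, 0.117 and 0.193 for Y244A with vector, Y244D and WT, so that not every array paired by set. The replicate block by number (JAK3 arm) or by set (plasmids) gave 0 members each time, with 104 genes after JAK3 siRNA against 200 without it and 0 genes for the plasmids (54 at an unadjusted p under 0.05 for full-length EZH2 minus vector). The plasmid median was -0.011 after quantile normalization and -0.015 with the interquartile range as a covariate, and that of Y244D minus WT was 0.009 with this covariate. When arrays were left out, the medians ran from -0.236 to 0.091 for Y244D minus WT, from -0.147 to 0.207 for Y244A minus WT and from -0.289 to 0.119 for Y244D minus Y244A. In the other alternatives run, each count of members called differed by at most 1 from the reported one and the siRNA medians kept their sign.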
